A study of Mus musculus with 4 samples.

Results

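Platelets of Old (24 months) and Young (3 months) male mice of WT (wild-type) genotype were compared, with 1 sequenced library in each group. Each library held RNA of platelets pooled from 7 mice and neither a sort nor a gate of the cells is named in the labels. All 16180 genes listed for this pair were described, of 17995 listed anywhere in the series. They were chosen by that listing alone, with no measured value, and every one has at least 2 reads over the pair. A further library, labelled WT, came from the pooled platelets of 7 male wild-type littermates of a platelet HuR knockout line, also at 3 months, and served as another library of the young age. The 2 groups compared differ in age and in nothing else the labels state. The strain, the housing and the day of collection are not given in the sources used here.

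Platelets are small anucleate cells shed into the blood by megakaryocytes. They make no new transcripts of their own, so that their RNA is what the megakaryocyte packed into them, less what has decayed since. They carry adhesion receptors that hold them to an injured vessel wall, receptors for soluble agonists such as thrombin and ADP, a contractile cytoskeleton, and granules whose contents are released on activation. They also hold mitochondria, lysosomes and enough ribosomes and translation factors to make some protein. A platelet preparation can contain a few leukocytes, which hold far more RNA per cell than a platelet does, and red cells or their precursors.

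Old gave 18472149 reads assigned to genes and Young 18145612, and the WT library 17978384. Reads are whole numbers recovered from the deposited scaled values. A ratio compares reads after scaling the 2 libraries by the trimmed mean of M-values (TMM), and the range after it is an exact 95% interval that covers counting error only. With 1 library in each group there is no replicate, no difference has a replicate check, and no test across animals is possible. Risen and fallen are used only for genes past a rule of size: 100 reads or more in whichever library held more, and an interval that lies wholly beyond a 2-fold difference. Medians are of log2 ratios with 0.5 read added, over genes with at least 20 reads in the pair. All 20 platelet defining markers were present in both libraries, and summed to 145867 RPM (reads per 1000000 reads of the library) in Old and 154877 in Young. With TMM scaling, as used for ratios, that sum was 1.05 times as high in Old, so its direction turns with the scaling.

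Old and Young platelets differed far more than the pair of 3-month libraries did. The size rule could apply to 6519 genes, of which 278 (4.26%) rose in Old and 280 (4.3%) fell. With libraries scaled by their totals alone the same counts were 225 and 425, so that the share of calls that were rises went from 49.8% to 34.6%. For the WT library over Young, 28 of 6373 genes rose (0.439%) and 36 fell (0.565%). In Old over the WT library, 287 of 6328 rose (4.54%) and 267 fell (4.22%). These comparisons share libraries with each other and are given side by side only. The log2 ratios of Old over Young had quartiles of -0.64 and 0.47 around a median of -0.06 over 11694 genes. Those of the WT library over Young had quartiles of -0.37 and 0.34 around -0.00.

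**Figure D1:**
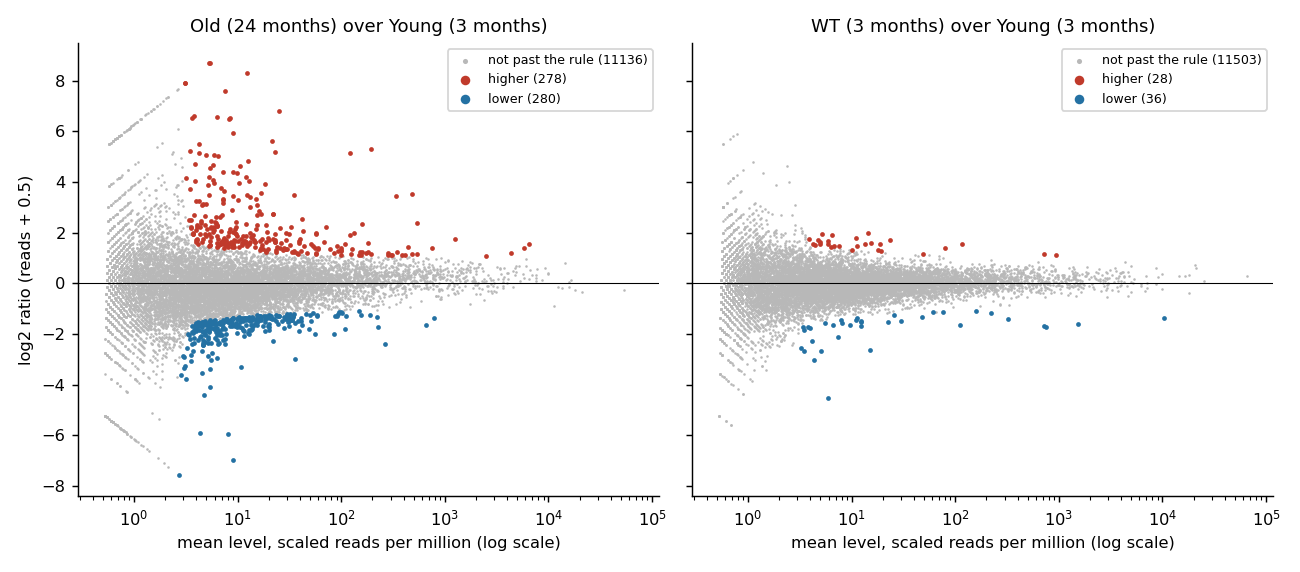
Log2 ratio of each gene (vertical, 0.5 read added) against its mean level in scaled RPM (horizontal, log scale) for Old over Young (left) and the WT library over Young (right), with each point a gene of at least 20 reads. Red and blue points rose or fell, 278 and 280 on the left against 28 and 36 on the right.

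The median gene of the highest decile by mean level was slightly higher in Old, and that of the middle deciles lower. In the highest decile of genes by mean level, which starts at 80.2 scaled RPM, the median log2 ratio was 0.21, and 42 genes rose and 17 fell of 1170. In the decile from 3.60 to 5.60 the median was -0.23, the lowest of the 10, and in the lowest decile it was -0.04. The highest decile lay 0.25 above the lowest. When genes were ranked per kilobase of exon instead, the highest decile had a median of 0.18 and decile 5 one of -0.23. In the WT library over Young the same deciles by level ran from -0.08 in the lowest to 0.09 in the highest. Counting error was small at the top: the interval left out a ratio of 1 for 90.1% of genes in the highest decile of Old over Young and for 83.3% in that of the WT library over Young. Despite these shifts the concentration of the RNA was close in the libraries, with 50% of reads on 86 genes in Old, 84 in Young and 77 in the WT library. For 90% of reads the counts lay further apart, at 1265 genes in Old, 1488 in Young and 1348 in the WT library.

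Most transcripts of protein synthesis lay lower in Old. Of 81 cytosolic ribosomal protein genes with at least 20 reads, 73 lay below the median of all genes, and their median log2 ratio was -0.64. Only 3 of the 77 with at least 100 reads fell by the size rule and 0 rose, a share near the 4.3% of all genes, so that the difference was shallow in each gene and shared by most. Their median was -0.00 in the WT library over Young, and in Old over the WT library it was -0.62. Together the list held 7752 RPM in Old and 12425 in Young. In bulk RNA, fewer cells of a type and less RNA in each cell cannot be told apart.

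The 3 ribosomal protein genes that fell all encode proteins of the small subunit. Rps3a1, on the minus strand of chromosome 3 (86137940 to 86142702, mm10), had 2173 reads in Old, 6046 in Young and 6393 in WT. It was 2.54-fold lower in Old than in Young (2.42 to 2.67). Its near-identical copy Rps3a2, annotated as a processed pseudogene, went the other way with 780, 23 and 27 reads. Summed over the pair the ratio was 0.533 (0.510 to 0.557), lower in Old but short of the size rule, so the size of the fall depends on how reads were shared between the copies. Rps7 had 1595 reads in Old, 4131 in Young and 4067 in WT, 2.37-fold lower (2.23 to 2.51). Rps15a had 1088, 2623 and 2798, 2.20-fold lower (2.05 to 2.37). In all 3 the libraries of 3 months lay close together and Old apart. The most abundant members differed less: Rplp0, which encodes the acidic stalk protein, had 14362 reads in Old and 13999 in Young (ratio 1.12, 1.10 to 1.15). Rpl41 had 8523 and 8391 (1.11, 1.08 to 1.15), and Rpsa, the laminin-binding small-subunit protein, 7169 and 10257 (0.765, 0.742 to 0.789).

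Messenger RNAs of ribosomal proteins and elongation factors are known for a tract of pyrimidines at their very 5′ end, through which their translation is controlled as a group. The stretches of 30 bases around the RefSeq start of 4 of them (GRCm38.p6, the 16th base being the start, 5′ to 3′ on the coding strand) are shown because they contrast genes that hold the tract with genes that fell without it. Capitals mark a C followed by at least 4 pyrimidines that begins within 2 bases of the start.
Rps15a, chr7:118116133-118116162: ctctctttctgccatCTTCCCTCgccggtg
Eef1a1, chr9:78481710-78481739: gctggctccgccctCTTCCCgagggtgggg
Rps3a1, chr3:86142654-86142683: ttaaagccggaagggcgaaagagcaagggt
Rps7, chr12:28635939-28635968: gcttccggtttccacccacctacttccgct
Of 60 measured ribosomal protein genes with an entry, 13 hold the tract exactly at the start (21.7%), against 3.03% of 8346 protein-coding genes and 2.51% of all 32851 promoters in the RefSeq table. The ribosomal protein genes with it had a median log2 ratio of -0.68 and the 47 without it -0.59. The order turned in Old over the WT library (-0.47 with it and -0.62 without), and the WT library over Young had -0.21 and 0.04. Among 8234 genes outside the ribosomal protein and translation factor lists, the 238 with the tract had a median of -0.04 and the rest -0.06. These counts take the tract exactly at the start, which leaves out Eef1a1. By the wider rule of the capitals, within 2 bases, 21 of the 60 ribosomal protein genes hold it (35%), against 12.6% of the 8346. Their medians in Old over Young were then -0.64 with it and -0.61 without. Annotated starts can lie some bases from those used in megakaryocytes, and a match is a description of these letters only.

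Translation factors and the tRNA-charging enzymes followed the same direction. Of 68 translation factors 51 lay below the median of all genes (median -0.38). Of 53 with at least 100 reads 1 fell and 0 rose, where 4.3% of all genes fell and 4.26% rose. The elongation factor Eef1a1, which brings charged tRNA to the ribosome, had 31965 reads in Old, 55678 in Young and 51510 in WT, a ratio of 0.629 (0.620 to 0.637). Eif1, which guards the choice of start codon, had 30025 and 43969 (0.748, 0.737 to 0.759), and Pabpc1, the poly(A)-binding protein, 20147 and 29153 (0.757, 0.743 to 0.770). The member that fell was Eif3m, a subunit of the initiation factor that recruits the small subunit, with 130, 447 and 547 reads, 3.14-fold lower (2.58 to 3.85). Of 33 aminoacyl tRNA synthetases 28 lay below the median of all genes (median -0.66). Iars (isoleucine; 31, 177 and 172 reads in Old, Young and WT), Farsa (phenylalanine; 36, 122 and 116) and Wars (tryptophan; 118, 335 and 337) fell, 5.21-fold, 3.09-fold and 2.59-fold. Lars2, the mitochondrial leucine enzyme, rose against this direction, with 227, 27 and 63 reads (9.21-fold, 6.16 to 14.3).

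Ribosome biogenesis genes, which act in the nucleolus of nucleated cells, had the lowest median of all lists of platelet and housekeeping functions, -0.75 over 57 genes, of which 49 lay below the median of all genes. Nop58, a core protein of the small nucleolar particles that methylate ribosomal RNA, had 43 reads in Old, 195 in Young and 174 in WT, 4.14-fold lower (2.96 to 5.90). Tsr1, a maturation factor of the small subunit, fell 3.71-fold (2.53 to 5.57) and Polr1a, the largest subunit of RNA polymerase I, 2.84-fold (2.17 to 3.76). The abundant nucleolar proteins Ncl and Npm1 had 1110 and 781 reads in Old against 2430 and 1520 in Young, at ratios of 0.50 (0.465 to 0.537) and 0.563 (0.515 to 0.614), short of the size rule. Mitochondrial ribosomal proteins had a median of -0.43, with 53 of 76 below the median of all genes and Mrpl43 3.03-fold lower (53 reads against 176).

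Transcripts that handle RNA and DNA leaned lower in Old as well. Across all lists of the gene expression machinery together, 757 of 1059 genes lay below the median of all genes (71.5%). Of 591 with at least 100 reads 38 fell and 4 rose, where 4.3% of all genes fell and 4.26% rose. The WT library over Young had 586 of 1075 below the median of all genes (54.5%), with 5 that fell and 1 that rose of 604. In Old over the WT library it was 730 of 1048 (69.7%), with 31 and 10 of 562. Of its 14 lists with at least 10 measured members, 10 had at least 2 in 3 of them below the median of all genes and 0 above it, and all 10 kept that direction with the WT library as the reference. Markers of lymphocytes were lower in Old as well, at 383 RPM against 997 for B cells and 233 against 430 for T and NK cells, and their part in these differences was not tested.

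Splicing factors and hnRNPs, which remove introns and package transcripts, had a median of -0.40, and 7 fell and 0 rose of 74. Of all genes 4.3% fell and 4.26% rose. Rbm34 (21 reads in Old, 109 in Young), Sf3a3 (39 and 161) and Rbm22 (86 and 295), the latter pair being parts of the spliceosome, were 4.74-fold, 3.77-fold and 3.13-fold lower. Rbm34 had 30 reads in the WT library, near its level in Old, while Sf3a3 had 156 and Rbm22 225. The abundant splicing regulator Mbnl1, which is high in platelets, had 48134 reads in Old and 66432 in Young (0.793, 0.784 to 0.803). Genes of mRNA decay had a median of -0.50, with 48 of 62 below the median of all genes, yet 0 of 41 rose or fell. Nucleoporins, the subunits of the nuclear pore, had one of -0.59, and Rae1 and Nup160 fell 3.31-fold (37 against 134 reads) and 2.82-fold (54 against 167).

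Chromatin modifiers had a median of -0.40 over 103 genes, and 4 of 87 fell, near the 4.3% of all genes. Hdac9, a class IIa histone deacetylase, had 12 reads in Old, 103 in Young and 172 in WT, 7.84-fold lower (4.30 to 15.7). Tet3, which oxidises methylcytosine, fell 3.23-fold (117 against 414 reads) and Smarcd1, a subunit of the SWI/SNF remodeller, 3.40-fold (50 against 186). Smarcd1 had only 71 reads in the WT library. Genes of Mediator and RNA polymerase II had a median of -0.25. Their largest fall was Med23, a Mediator tail subunit, with 13, 123 and 80 reads in Old, Young and WT (8.64-fold, 4.87 to 16.7). Polr2b, the second-largest polymerase subunit, fell 2.57-fold (138 against 388 reads), and the largest, Polr2a, had 866 and 1890 reads (0.502, 0.462 to 0.544). Zfp zinc finger genes, the largest family of transcription factors, had a median of -0.42, with 155 of 236 below the median of all genes.

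Genes of DNA replication and repair had a median of -0.63 over 86 genes, and 4 of 34 fell, against 4.3% of all genes. Parp1, the sensor of DNA strand breaks, was the most abundant of them to fall, with 354 reads in Old, 1216 in Young and 822 in WT (3.14-fold, 2.78 to 3.54). Both Pold1 and Pold2, subunits of DNA polymerase delta, were lower, 3.25-fold (78 against 278 reads) and 10.8-fold (9 against 106). Genes that mark dividing cells did not share this: their median was 0.17, and 0 of 4 rose or fell, with Mki67 at 222 reads in Old and 127 in Young.

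**Figure D2:**
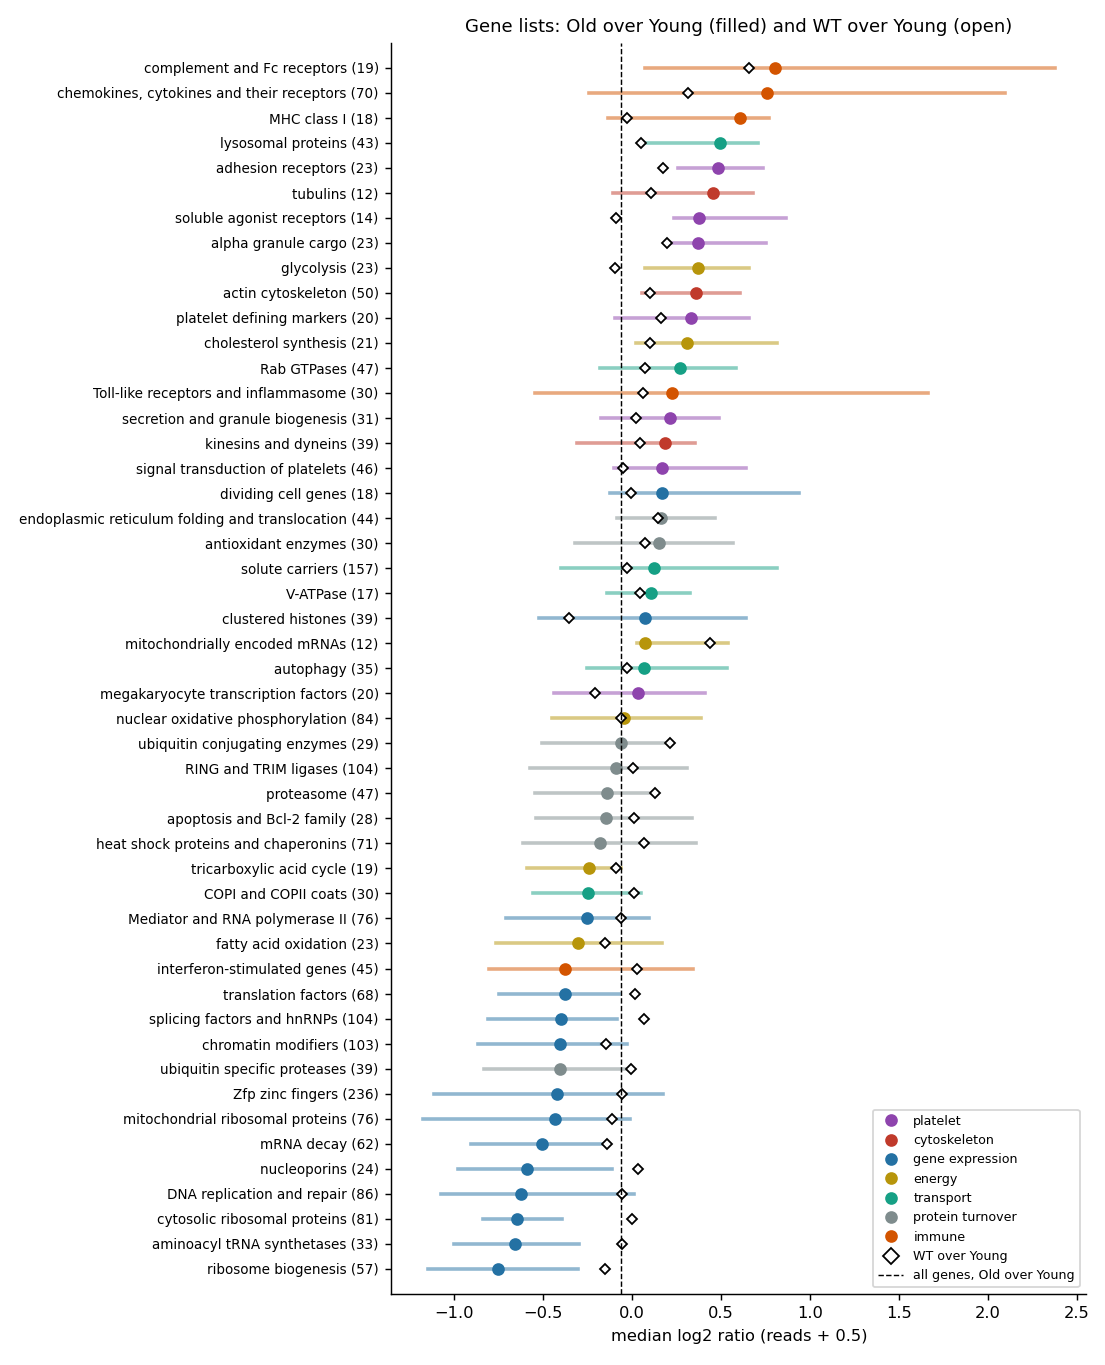
Median log2 ratio of functional gene lists with at least 10 measured members, lists of other cells left out (number in brackets), for Old over Young (filled points, coloured by theme, with bars from the lower to the upper quartile of the genes) and for the WT library over Young (open diamonds). The dashed line is the median of all genes in Old over Young, -0.06; lists of gene expression lie at the bottom, down to -0.75, and platelet lists in the upper part.

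The transcripts of platelet function went the other way. Across the platelet and cytoskeleton lists together, 234 of 333 genes lay above the median of all genes (70.3%), and 14 rose and 5 fell of 277, where 4.26% of all genes rose and 4.3% fell. The lean is thus in the direction of many genes, and the share that rose is near that of all genes. The corresponding count was 182 of 329 in the WT library over Young (55.3%), with 0 and 0 of 279, and in Old over the WT library 216 of 336 (64.3%), with 12 and 3 of 280. These transcripts are abundant, with a median level of 62.5 scaled RPM, and genes of that abundance were somewhat higher in Old as a whole. Set against genes of the same decile of level, a comparison added after the data were seen, the median of adhesion receptors was 0.41 higher, of alpha granule cargo 0.20, of actin cytoskeleton genes 0.17 and of signal transduction genes 0.04.

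Among adhesion receptors 20 of 23 lay above the median of all genes, with a median of 0.48. In the WT library over Young 19 of 23 lay above it too, with a smaller median of 0.18. In Old over the WT library it was 19 of 23, with a median of 0.40. Itga2b and Itgb3, the chains of the fibrinogen receptor, had 323676 and 112420 reads in Old against 203068 and 77389 in Young, and 158411 and 66802 in WT. Their ratios of 1.75 (1.74 to 1.75) and 1.59 (1.58 to 1.61) were alike, and short of the size rule. Itga2, the collagen-binding integrin chain, rose from 6334 reads in Young and 6034 in WT to 12991 in Old (2.25-fold, 2.18 to 2.31). The tetraspanin Cd9 had 203275 and 246318 reads (0.904, 0.898 to 0.909). Of the receptors for soluble agonists, the thrombin receptor F2r rose 2.28-fold (2.03 to 2.56; 913 reads in Old, 438 in Young, 321 in WT). By contrast P2ry12, the ADP receptor that antiplatelet drugs block, had 43738 and 52139 reads (0.919, 0.907 to 0.930). In the signalling list 1 of 45 rose, where 4.26% of all genes did. It was Lat, the adaptor downstream of the collagen receptor, with 6743 reads in Old, 3400 in Young and 2693 in WT (2.17-fold, 2.08 to 2.26). Tln1, which activates integrins from inside, had 129547 and 89302 reads (1.59, 1.57 to 1.60).

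Most granule cargo transcripts lay higher in Old, with exceptions among the abundant ones. Of 23 genes for alpha granule cargo 20 lay above the median of all genes, and 4 of 21 rose, where 4.26% of all genes rose. Their median was 0.37, and 0.20 in the WT library over Young. In Old over the WT library 18 of 24 lay above the median of all genes, with a median of 0.23, and only 1 of 21 rose. Coagulation factor V, F5, had 147767 reads in Old, 62165 in Young and 65193 in WT (2.60-fold, 2.58 to 2.63). Timp2 and Timp3, inhibitors of matrix metalloproteinases, rose 3.72-fold (136 against 40 reads) and 2.79-fold (316 against 124), and the amyloid precursor App 3.22-fold (318 against 108). The WT library held 70 reads of Timp2 and 148 of App, between Young and Old. Clu, the chaperone clusterin, had a ratio of 1.29, but Nrgn and Ppbp, the latter a platelet chemokine, had 0.832 and 0.893. Timp3 was chosen after its values were seen. Among secretion and granule biogenesis genes Slc18a2, which fills dense granules with serotonin, rose 2.57-fold (1983, 845 and 832 reads in Old, Young and WT). Lyst, whose loss disturbs lysosome-related granules, rose 2.27-fold (1140 against 551). Abcc4, the exporter that moves nucleotides into dense granules, fell from 1709 reads in Young and 1587 in WT to 393 in Old (3.97-fold, 3.56 to 4.44). The plasma membrane serotonin transporter Slc6a4 had 24282 reads in Old and 14567 in Young (1.83, 1.79 to 1.86).

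In the cytoskeleton the filamin, tropomyosin and platelet tubulin genes stood out. Actin cytoskeleton genes had a median of 0.36, with 41 of 50 above the median of all genes. Flna, which links actin to the von Willebrand factor receptor, had 170377 reads in Old, 64168 in Young and 68571 in WT (2.91-fold, 2.88 to 2.93). Tpm2 rose 2.44-fold (2458 against 1102 reads). The fall of Tpm3 (5643 against 19174 reads) came with 15373 against 1457 reads on its near-identical copy Tpm3-rs7. The sum of both had a ratio of 1.12 (1.09 to 1.14). The light chain Myl9 had a ratio of 1.45 and Zyx, a focal adhesion protein, 1.07. Tubb1, the tubulin of the ring that shapes platelets, rose 2.28-fold (2.26 to 2.30; 105291, 50582 and 49218 reads in Old, Young and WT). The 12 tubulins with at least 20 reads had a median of 0.45, and 9 of them lay above the median of all genes. In the WT library over Young it was 9 of 12 as well, with a median of 0.11. All 16 tubulins of the table summed to 7467 RPM in Old and 4165 in Young, mostly from Tubb1. Of 18 megakaryocyte transcription factors with at least 100 reads 1 fell, near the 4.3% of all genes. It was Runx1, 2.42-fold lower (939 reads in Old, 2484 in Young and 1939 in WT). In Old over the WT library 0 of 18 fell.

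**Figure D3:**
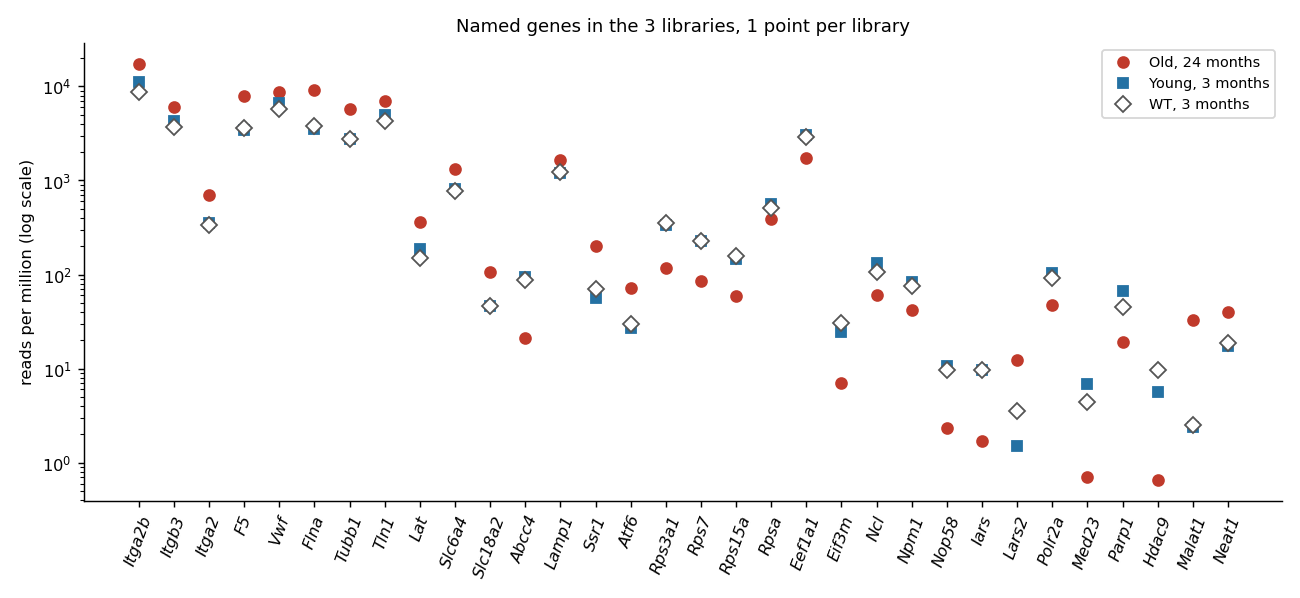
RPM (vertical, log scale) of named genes in the Old, Young and WT libraries, with 1 point for each library. For genes of adhesion, granules and cytoskeleton on the left, Abcc4 excepted, Old lies above both 3-month libraries. From Rps3a1 to Hdac9, Lars2 excepted, it lies below them. The genes were selected for display with their values known, so the split does not describe whole lists. Abundant members that go the other way over Young are not shown: Cd9, Nrgn and Ppbp (ratios below 1), and Rplp0 and Rpl41 (above 1).

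Transcripts of lysosomes and of vesicle traffic by Rab GTPases leaned upward, with a change past the size rule in 1 gene only. Of 43 lysosomal protein genes 36 lay above the median of all genes (median 0.49), but 0 of 26 rose or fell. Lamp1, the main glycoprotein of the lysosomal membrane, had 30273 reads in Old, 21575 in Young and 22186 in WT (1.54, 1.51 to 1.56). Lamp2 had a ratio of 1.29 and the protease Ctsd one of 1.05. Against genes of the same level the lysosomal median was 0.48, and in the WT library over Young it was 0.05. Rab GTPases, which direct vesicles to their targets, had a median of 0.27, with 32 of 47 above the median of all genes. Rab3d, a regulator of exocytosis, rose 2.38-fold (853 against 392 reads), while Rab27b, needed for dense granule secretion, had a ratio of 1.46.

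In the endoplasmic reticulum 3 of 36 genes rose and 0 fell, where 4.26% of all genes rose and 4.3% fell. Ssr1, a subunit of the complex that assists translocation, had 3677 reads in Old, 1023 in Young and 1275 in WT (3.94-fold, 3.67 to 4.22). Rpn2, of the oligosaccharyltransferase, rose 3.32-fold (539 against 178 reads), and Atf6, a sensor of unfolded protein, 2.93-fold (1326 against 495). The list's median was 0.17, against 0.15 in the WT library over Young, so that the list as a whole differed as much between the 3-month libraries. COPI and COPII coat genes had a median of -0.25, autophagy genes of 0.07 and V-ATPase subunits of 0.11, with 0 rising or falling in each. Proteasome subunits had a median of -0.14 and 0 of 42 rose or fell, while ubiquitin specific proteases had one of -0.41, in which Usp46 alone moved, rising 3.04-fold (683 against 246 reads).

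The lists of energy metabolism had medians of either sign over Young. Of 23 measured glycolysis genes 19 lay above the median of all genes, with a median of 0.37 that was -0.09 in the WT library over Young. The glucose transporter Slc2a3 had 81685 reads in Old and 66800 in Young (1.34, 1.33 to 1.35), and the pyruvate kinase Pkm 46694 and 30526 (1.67, 1.65 to 1.70). The 2 that rose are low in these libraries: Hk3, a hexokinase of myeloid cells, 11.6-fold (169 against 16 reads), and Slc16a3, a lactate exporter, 8.88-fold (154 against 19). Genes of the tricarboxylic acid cycle and of fatty acid oxidation had medians of -0.24 and -0.30, which were -0.09 and -0.15 in the WT library over Young. In Old over the WT library the medians were -0.17 and -0.25, with 10 of 19 and 14 of 23 below the median of all genes. Summed reads of fatty acid oxidation genes had a ratio of 0.998 (0.964 to 1.03) over Young. Echs1 and Etfa, both of beta oxidation or its electron transfer, were 3.68-fold and 3.12-fold lower. The 84 nuclear genes of oxidative phosphorylation had a median of -0.05 and 42 on each side of the median of all genes. Within them Cox5a had 3193 and 6128 reads (0.571) and Atp5e 8941 and 4763 (2.06).

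Mitochondrially encoded transcripts did not move together. mt-Co1 had 141157 reads in Old, 80203 in Young and 90746 in WT (1.93, 1.91 to 1.94), and mt-Co3 rose 3.33-fold (1070, 352 and 352 reads). By contrast mt-Cytb had 60151, 73955 and 93047 reads (0.891, 0.881 to 0.90). The ribosomal RNA mt-Rnr1 rose 3.34-fold over Young (34056 against 11158 reads), but the WT library held 22312 reads. The tRNA gene mt-Tp, which lies on the opposite strand beside the control region, rose 3.80-fold (3345 against 965 reads, with 1746 in WT). The 3-month libraries thus differed from each other in these RNAs as well. The median of the 12 messages was 0.07 over Young, 0.44 in the WT library over Young and -0.31 in Old over the WT library.

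Genes of innate immune cells were the group with the largest rises, and they came with markers of neutrophils. Of 70 measured chemokines, cytokines and their receptors, 50 lay above the median of all genes, at a median of 0.76. Of 36 with at least 100 reads 15 rose and 4 fell, where 4.26% of all genes rose and 4.3% fell. A gene with few reads in Young can enter that count only through Old. In the WT library over Young 46 of 66 lay above (median 0.32), and 1 rose and 0 fell of 24. In Old over the WT library the median was 0.41, and 9 rose and 3 fell of 37. Csf3r, the receptor of granulocyte colony-stimulating factor, had 1133 reads in Old, 110 in Young and 181 in WT (11.3-fold, 9.27 to 13.8), and Cxcr2, a neutrophil chemokine receptor, 353, 15 and 38 (25.8-fold, 15.4 to 46.5). The neutrophil markers as a list had 22 members in the table. Of 14 with at least 100 reads in either library 13 rose and 0 fell, where 4.26% of all genes rose. The list held 17006 reads in Old and 963 in Young, so a member reaches 100 reads mainly through Old. The rule itself therefore favours rises in that count. The markers summed to 921 RPM in Old, 53.1 in Young and 99.8 in the WT library, whose table does not list 5 of them. Of the defining markers Mpo, Ly6g, Il1r2, Ltf, Camp and Wfdc21 were at 0 in Young and none was at 0 in Old. Monocyte and macrophage markers, 3 of 9 of which rose (Cd14, Csf1r and Ccr2), summed to 2606 RPM in Old, 3557 in Young and 3461 in the WT library, mostly from Lyz2, with Cx3cr1 and Lyz1 at 0 in Old and Vcam1 and Cd14 at 0 in Young. The part of these cells in the other differences was not tested. Without all genes on the lists of other cells 259 genes rose and 253 fell.

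Complement and Fc receptor genes had a median of 0.81, which was 0.66 in the WT library over Young. Of 8 with at least 100 reads 3 rose (C3, Cd59a and Fcgr3) and 1 fell (Fcer2a, a B cell receptor for IgE), but in Old over the WT library 2 of 10 rose and 4 fell. Cd59a, which shields cells from complement, rose from 3325 reads in Young and 4800 in WT to 15636 in Old (5.15-fold, 4.96 to 5.35). Unlike the leukocyte genes it was abundant in all libraries. MHC class I genes had a median of 0.61, with H2-K1 and H2-T24 higher 2.32-fold (4209 against 1987 reads) and 2.17-fold (9863 against 4984), and H2-D1 at a ratio of 1.68. H2-Q6 fell 3.82-fold (38, 159 and 110 reads in Old, Young and WT). With B2m the list summed to 19141 RPM in Old, 18891 in Young and 27037 in the WT library, so that the sum over the WT library had a ratio of 0.729 (0.726 to 0.732), while the median over it was 0.49. Their near-identical sequences make the split between members uncertain. B2m, their shared light chain, had a ratio of 1.04. Interferon-stimulated genes leaned lower, with a median of -0.38, and 29 of 45 lay below the median of all genes and 16 above. In Old over the WT library 29 of 45 lay below it as well, with a median of -0.30. The median was 0.03 in the WT library over Young. Of 32 with at least 100 reads 1 rose and 3 fell over Young. Ifitm1 rose 13.8-fold (227, 18 and 20 reads in Old, Young and WT). Stat2, Irf9 and Ddx58, parts of the response itself, fell 3.33-fold, 2.76-fold and 2.62-fold.

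The remaining lists of cell functions varied in how many genes changed, against 4.26% of all genes that rose and 4.3% that fell. Solute carriers had a median of 0.13, and 9 of 81 rose and 2 fell. Cholesterol synthesis genes had one of 0.31 with 0 of 4 either way, and kinesins and dyneins one of 0.19 with 0 of 23. Secretion and granule biogenesis genes had a median of 0.21, and agonist receptors one of 0.38. Septins, which form filaments under the membrane, had 0.38 with 1 of 6 lower. Antioxidant enzymes had a median of 0.16 with 0 of 22 either way. Heat shock proteins and chaperonins had -0.18, ubiquitin conjugating enzymes -0.06 and RING and TRIM ligases -0.09, with 1, 0 and 2 that fell and 0 that rose in each. Of the apoptosis list (median -0.14) Casp4, an inflammatory caspase, rose 3.40-fold (462, 149 and 162 reads in Old, Young and WT). Birc3, an inhibitor of apoptosis, fell 3.07-fold (172, 578 and 395 reads). Toll-like receptor and inflammasome genes had a median of 0.23, and 5 of 16 rose and 0 fell. GIMAP GTPases, which are lymphocyte genes for the most part, had a median of -0.46, with 1 of 8 that fell. Clustered histone genes had 0.08, against -0.35 in the WT library over Young.

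Markers of lymphocytes were lower, and the immunoglobulin classes diverged. Of 24 B cell markers 23 lay below the median of all genes and 13 of 21 fell, where 4.3% of all genes fell. Their summed levels were 383 RPM in Old, 997 in Young and 1192 in the WT library, with none at 0. T and NK cell markers, 5 of 17 of which fell, summed to 233, 430 and 272 RPM, so that the WT library lay near Old, with Klrd1 at 0 in Old. MHC class II and dendritic cell markers, 5 of 11 of which fell, summed to 210, 478 and 548, with Ccr9 at 0 in Old and Flt3 in Young. The heavy chains of naive B cells, Ighm (844 reads in Old, 3196 in Young, 3844 in WT) and Ighd (379, 1448 and 1926), fell 3.46-fold and 3.49-fold. Igha, the heavy chain of mucosal IgA, rose 10.6-fold (7.75 to 14.9; 417, 43 and 113 reads). The 4 IgG heavy chain genes together had 250, 54 and 90 reads, a ratio of 5.07 (3.76 to 6.94). Light chain constant genes, which all classes share, summed to 498, 1350 and 2204 reads. Class-switched chains were therefore higher in Old and unswitched ones lower. The list of immunoglobulin and plasma cell genes, 1 of 6 of which rose and 2 fell, summed to 64.6 RPM in Old, 52.0 in Young and 56.9 in the WT library, with Derl3 and Sdc1 at 0 in Young.

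Erythroid markers did not follow age. They summed to 15088 RPM in Old, 25777 in Young and 11818 in the WT library, so that Young was the highest and the WT library the lowest. Klf1 was at 0 in Young. Hba-a1 had 137851, 280302 and 99288 reads, and the 4 haemoglobin genes together had a ratio of 0.574 (0.571 to 0.577) to Young. Sptb, the erythroid spectrin chain, rose 2.37-fold (4500, 2078 and 1325 reads). The endothelial list summed to 10908, 8468 and 7492 RPM and none was at 0. Of 11 members with at least 100 reads 1 rose and 0 fell, where 4.26% of all genes rose and 4.3% fell. The most abundant members of the list, Vwf and Pecam1, are platelet genes too. The gene that rose was Flt1, a receptor of vascular endothelial growth factor, with 552, 122 and 126 reads (4.95-fold, 4.07 to 6.08). Basophil and mast cell markers had 2 members with at least 100 reads, of which Il4 fell (25 against 187 reads), and summed to 64.1 and 66.2 RPM in Old and Young.

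**Figure D4:**
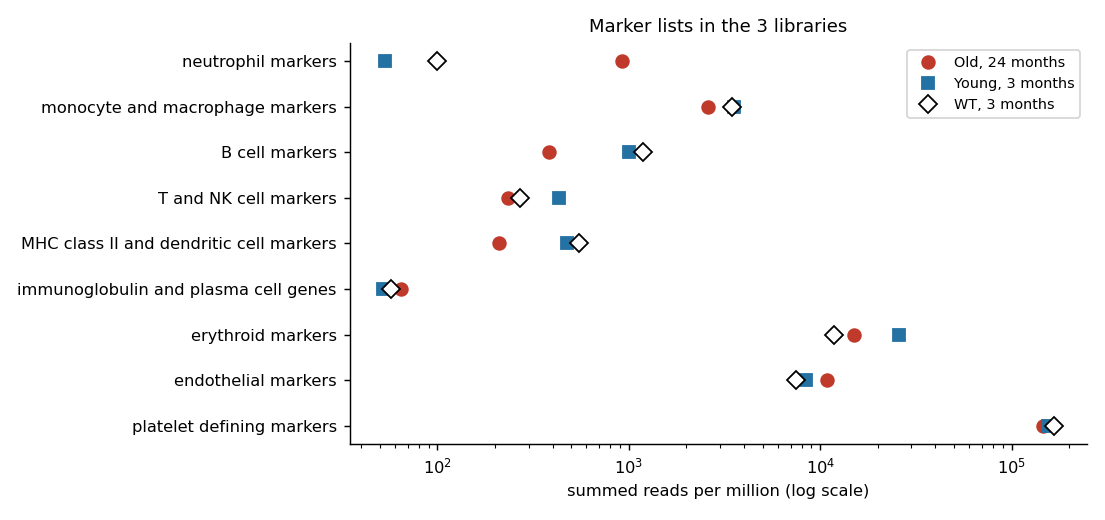
Summed RPM (horizontal, log scale) of the marker lists of other cells and of platelets in the Old, Young and WT libraries, with 1 point for each library. Neutrophil markers lie at 921 in Old against 53.1 and 99.8, B cell markers at 383 against 997 and 1192, and the platelet markers nearly coincide.

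Transcripts other than messenger RNA differed between the Old and Young libraries in some classes and not in others. Some of these differences were nearly as large between the WT library and Young. Protein-coding genes took 97.0% of reads in Old and 97.1% in Young, long intergenic RNAs 1.45% and 1.60%, and mitochondrial ribosomal RNA 0.734% and 0.462%, the last being 0.712% in the WT library. The 633 long noncoding genes with at least 20 reads had a median log2 ratio of 0.15 and protein-coding genes one of -0.07, a difference of 0.23. The WT library over Young gave a difference of 0.22, and Old over the WT library only 0.06. By biotype the medians were 0.09 for 259 long intergenic RNAs, 0.27 for 166 antisense genes, and 0.05 for 418 processed pseudogenes. For 59 genes of the biotype TEC, loci still awaiting experimental support, the median was 0.44, with 44 above the median of all genes, against -0.00 in the WT library over Young and 0.45 in Old over the WT library. Mitochondrial tRNA genes had 3394 reads in Old, 1025 in Young and 1820 in WT, nearly all from mt-Tp. Since no source used here states whether counting used strand, antisense reads cannot be told apart from those of the gene opposite. Of 179 long noncoding genes with at least 100 reads 12 rose and 6 fell, where 4.26% of all genes rose and 4.3% fell.

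A few long noncoding genes differed strongly. Malat1, a nuclear RNA of speckles on the minus strand of chromosome 19 (5795690 to 5802672, mm10), had 605 reads in Old, 43 in Young and 45 in WT (15.4-fold, 11.3 to 21.5). Its neighbour Neat1, the scaffold of paraspeckles in the nucleus, had 732, 313 and 335 (2.56-fold, 2.24 to 2.93). Both are kept in the nucleus of cells that have one, and both 3-month libraries held nearly equal counts of each. These RNAs rose together with the neutrophil markers, whose part in this was not tested. Zfas1 and Gas5 host small nucleolar RNAs in their introns. Zfas1 fell 5.23-fold (29, 166 and 98 reads) and Gas5 had 897, 1344 and 1399 reads (0.731, 0.671 to 0.796), in the same direction as the ribosome biogenesis list. The microRNA host reads of Mir23a and Mir27a were too few to judge, 57 and 37 in Old against 34 and 13 in Young. Of the T cell receptor genes, the beta variable segments Trbv12-2 and Trbv13-2 rose 3.18-fold and 2.74-fold (253 against 87 and 238 against 95 reads), while the constant genes Trac and Trdc fell 3.82-fold and 2.84-fold (45 against 188 and 44 against 137).

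Gene length bore little on the difference. Over 10500 protein-coding genes the quintile with the shortest exon length (258 to 2577 bases) had a median log2 ratio of 0.01 and the quintile with the longest (at least 7817 bases) -0.13, and the decline was steady between them. Spearman's rank correlation across these genes, which are not independent replicates, was -0.03. Within the tertile of genes with the highest level the medians ran 0.08, 0.12, 0.07, 0.06 and -0.04 from the shortest to the longest quintile, and within the middle tertile -0.08, -0.23, -0.24, -0.29 and -0.26. Ranked by genomic span, introns included, the medians declined from -0.02 through -0.10 and -0.13 to -0.16 over 4 quintiles, and the longest had 0.01. Rises and falls were spread over the lengths, with 50 and 41 of 1051 genes in the shortest quintile and 59 and 62 of 1458 in the longest. The short abundant genes Tmsb4x, Fth1 and Nrgn had ratios of 0.828, 0.797 and 0.832, while the long Vwf and Flna had 1.47 and 2.91.

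GC content, examined after the data were seen, followed the ratio in every pair that included the WT library more closely than in Old over Young. In the WT library over Young the median fell from 0.23 in the quintile of protein-coding genes with the lowest GC content to -0.28 in the highest (rank correlation across 10383 genes -0.32). In Old over Young it went from -0.21 to 0.03 (rank correlation across 10495 genes 0.11). Old over the WT library went from -0.46 to 0.33 (rank correlation across 10388 genes 0.32). The genes that fell in Old were more often of low GC content, 72 in the lowest quintile against 37 in the highest, and those that rose of high, 26 against 66. Relative to genes of the same decile of GC content the ribosomal protein median was -0.62, ribosome biogenesis -0.71, adhesion receptors 0.57 and lysosomal proteins 0.57.

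**Figure D5:**
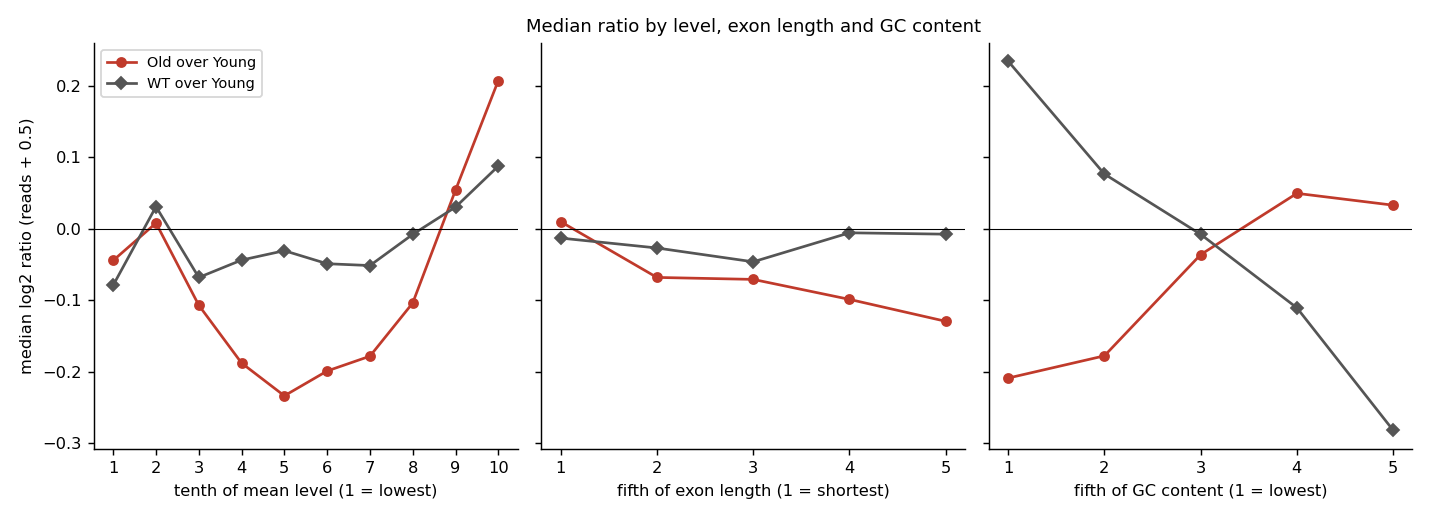
Median log2 ratio (vertical) in deciles of mean level (left), quintiles of exon length (middle) and quintiles of GC content (right), for Old over Young (red circles) and the WT library over Young (grey diamonds). Old over Young dips to -0.23 at middle levels and reaches 0.21 at the highest, length moves it from 0.01 to -0.13, and the trend with GC content is larger and opposite in the WT library over Young.

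Some genes were read in 1 library only. In Old 1804 genes had 0 reads, of which 78 had at least 20 reads in Young, and in Young 1122 had 0, of which 81 had at least 20 in Old. The largest of those at 0 in Young were Cd14 (188 reads in Old), Ltf (187), Dsp (109), Il1r2 (108) and Nos2 (93). All but Dsp, a protein of desmosomes, act in innate immunity. Nos2, the inducible nitric oxide synthase, was at least 33.9-fold higher in Old against a floor of 3 reads in Young, and had 6 reads in WT. Those at 0 in Old were Lynx1 (105 reads in Young), Srpk3 (82), Skint3 (65), Hcrtr1 (54) and Asf1a (51). Lynx1, a modulator of nicotinic receptors, and Srpk3, a kinase of splicing proteins, had 110 and 79 reads in WT, as in Young. The WT library held far fewer of Skint3 (15), Hcrtr1 (9) and Asf1a (24), the last a histone chaperone.

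Several of the steepest changes lie in genes with close copies elsewhere in the genome and are uncertain for that reason. Hist1h4n rose 10.9-fold (10895 against 1096 reads) while Hist1h4m fell 3.29-fold (1853 against 6678). The WT library held 2983 and 3335 reads of these, unlike either, and all 11 Hist1h4 genes together had a ratio of 1.46 (1.43 to 1.49). The vomeronasal receptor genes Vmn2r96 and Vmn2r97 had 132 and 130 reads in Old against 1 and 5 in Young. Other genes reached large folds at greater depth. Atox1, a copper chaperone, fell from 8576 reads in Young and 7248 in WT to 1476 in Old (5.31-fold, 5.02 to 5.61), Dennd4c 7.88-fold (142, 1226 and 1369 reads), and Tm4sf1, a tetraspan membrane protein, rose 5.75-fold (1244, 237 and 431 reads).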

How the data were processed

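The signal deposited by the authors is the read count of a gene after scaling between the libraries of a table, as its steps show. Division by the step of a library gave whole reads within 0.02 read for 100% of values. The other deposited columns used hold gene positions and exon lengths. The fixed design allowed for such scaling. Values under 0.1 were taken as 0. The build mm10 and the tools featureCounts 1.5.0-p3, DESeq2 1.20.0, HISAT2 2.0.5 and CASAVA are named, without role or order, per the submitters' processing notes. The gene annotation release, and how reads shared by several genes were counted, are not given in the sources used here. Not used were 4 columns whose names fit none of the samples, nor the authors' fold changes and p-values.

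TMM factors for each pair came from edgeR 4.0.16 in R 4.3.3, with DESeq2 1.42.0 size factors and read totals as alternatives. Comparisons with the WT library used genes in both tables, since the authors scaled the tables separately. With 1 library per group no count model can be fitted. Intervals are Clopper-Pearson intervals of the share of a gene's reads in 1 library, and they cover counting error of reads only. Amplified reads that carry no molecular identifier can repeat a molecule, so the intervals can be too narrow for counts of molecules. Depth gives a floor of 3 reads, 0.162 RPM in Old and 0.165 in Young. GC content is that of the longest GENCODE M21 transcript. The code was tested on simulated data.

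The 61 gene lists, the rules and the alternatives were chosen with earlier results of these data known. H2-DM genes were taken out of the MHC class I list and Zfp36 genes out of the zinc fingers after values were seen. Named genes are the 3 most abundant members of a group and up to 3 in each direction past the size rule, the 10 most abundant of a library, and up to 5 in each direction with 0 reads in the other library. Genes named outside that rule were chosen after their values were seen. The results of 1 gene and 1 list are not reported here.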

Additional observations from a re-analysis of the deposited data

How the results depend on the processing

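Scaling by read totals instead of TMM moved the median of all genes by -0.16 on the log2 scale and the genes that fell from 280 to 425. An interval bound of 1.5-fold gave 676 rises and 842 falls, and one of 4-fold 83 and 25, of which 76.9% were rises. The remaining alternatives for these counts (DESeq2 size factors, at least 50 reads, the WT library as reference, no genes of other cells) stayed within 1.5 times. The difference between the longest and the shortest quintile was -0.14, but 0.0229 by genomic span, which takes introns in. That between long noncoding and coding genes went from 0.23 to 0.0627 with the WT library as reference. That between the highest and the lowest decile of level went from 0.25 to 2.37 without a filter on low reads, where the lowest decile holds genes of few reads. Of 58 lists, taken relative to all genes, at least 100 reads, a pseudocount of 1 read and GC content moved 0 beyond the interval of the main median. Level or the WT library as reference moved 5 each. Scaling by DESeq2 or totals shifts every gene alike. It therefore cannot move a list relative to all genes, and its result for the lists is no check. Relative to the same level, alpha granule cargo had 0.20 and cytosolic ribosomal proteins -0.76. With the WT library as reference, ribosome biogenesis had -0.45 and B cell markers -1.90. Mitochondrial messages reversed, to -0.25 with that reference and -0.0050 relative to the same level. The causes were not tested. The comparisons within level and GC content were added after the data were seen. No paired analysis was possible because each group has 1 library. Depth limits genes under 100 reads, for which the rule makes no call.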

Other observations

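Genes grouped by the letters of their symbols, with no function assigned beforehand, gave 76 families with at least 15 measured protein-coding members. The lowest median log2 ratios of Old over Young were those of Mrps (-1.02, small-subunit proteins of the mitochondrial ribosome), Nup (-0.67), Mettl (-0.66, methyltransferase-like proteins), Rpl (-0.66), Ints (-0.62, the Integrator complex) and Rps (-0.60). In the WT library over Young the same families had -0.10, 0.06, -0.07, -0.07, 0.09 and 0.19. The highest were Clec (0.53, C-type lectins), Gpr (0.52, orphan receptors), Il (0.39), Tspan (0.36, tetraspanins), Cox (0.34), B (0.30, symbols with a B before the number) and Rab (0.27). With the WT library as the reference Clec had -0.10 and Il 0.06. Some of these families overlap the lists described above.

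Among transcription factor families of the deposited annotation, zinc fingers of the C2H2 class had a median of -0.42 over 305 genes, forkhead factors of -0.48 over 12 and ETS factors of -0.35 over 17. Homeobox genes had 0.22 over 27. By chromosome the medians lay between -0.14 and 0.00, with chromosome 18 at -0.24 and the mitochondrial genome at 0.14.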
